A study of Mus musculus with 7 samples.

Results

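Non-cycling alveolar macrophages were 4947 of the 50955 lung cell barcodes that passed the cell filter (9.71%), 2239 in Smad4fl/fl and 2708 in Smad4iko mice. They were chosen by their raw unique molecular identifiers (UMIs, 1 per captured mRNA molecule). A barcode needed at least 3 UMIs in the sum of Marco, Krt79, Plet1, Atp6v0d2 and Siglecf and at least 2 UMIs of Chil3. It could hold at most 1 UMI of C1qa, at most 1 of Cd3d, Cd3e and Cd3g together, and fewer than 50 of S100a8 and S100a9 together. It could hold no UMI of the cell cycle genes Top2a, Mki67, Birc5 and Ube2c.

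Alveolar macrophages are resident phagocytes of the airspace that clear surfactant, dead cells and inhaled particles. They are known to depend on GM-CSF from alveolar epithelium and on TGF-beta, which together sustain the transcription factor PPAR-gamma, and they persist mainly by local self-renewal. SMAD4 is the shared partner through which receptor-activated SMADs of the TGF-beta and BMP pathways act on genes.

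The study compared peripheral lung of 3 Smad4fl/fl mice, which carried floxed Smad4 and no Cre, with that of 4 Smad4iko littermates, which carried floxed Smad4 and Rosa26-creERT2. This tamoxifen-activated Cre is driven from the broadly expressed Rosa26 locus on chromosome 6, so that any cell type could recombine. Mice of both genotypes received 5 intraperitoneal doses of tamoxifen, 75 mg/kg, between postnatal days 21 and 26, and were sampled at 8 weeks. Each mouse gave 1 library of droplet-based 3' single-cell RNA sequencing, and the labels do not state sex.

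The 7 libraries held 46449235 to 66557262 UMIs in 55671 deposited barcodes and gave 516 to 969 non-cycling alveolar macrophages each. Their median depth was lowest in Smad4fl/fl 1, at 7712 UMIs, and ran from 9769 to 14489 UMIs in the other libraries, which overlapped between genotypes (exact permutation p = 0.286). Mitochondrial transcripts made up a median of 4.92% to 7.57% of their UMIs. Scrublet marked 144 of them as doublets (2.91%), and these were kept unless stated. No pair of libraries shared more than 3 barcodes among these cells, and 10 to 23 among all cells kept.

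Several libraries stood apart from the rest. Of 11177 genes tested in the summed non-cycling alveolar macrophages, 1332 (11.9%) were lower in both Smad4iko 3 and Smad4iko 4 than in the other 5 libraries, and 2445 (21.9%) were higher in both. Smad4fl/fl 1 was the highest of the 7 libraries for 2347 genes (21%), and its cells carried 1740 CPM (UMIs scaled to the total of the summed cells of a library) of 6 mesenchymal genes against 7.70 to 189 CPM elsewhere. Of its 654 cells, 70 held at least 5 mesenchymal UMIs, against at most 4 cells in any other library. Values without these libraries, or from a fit in which a covariate marks Smad4iko 3 and 4, are given beside some of the genes and lists named below.

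The cells matched their label. Ear1, an eosinophil-associated ribonuclease used as an alveolar macrophage marker and not part of the selection, stood at 516 to 1598 CPM, against 0 to 32.0 CPM in interstitial macrophages. The latter were 564 cells from the same libraries with at least 5 UMIs of C1qa, C1qb and C1qc and at most 1 UMI each of the summed alveolar markers and of Chil3. Pparg, the lineage's nuclear receptor, stood at 120 to 167 CPM in non-cycling alveolar macrophages and at 5.12 to 21.8 CPM in interstitial ones. Fabp1, a fatty acid binding protein, stood at 289 to 1131 CPM against 0 to 4.94 CPM. Cidec, a lipid droplet protein, stood at 144 to 231 CPM against 0 to 2.73 CPM.

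Genes of the interstitial class went the other way. C1qb, a chain of complement C1q, reached at most 3.83 CPM in non-cycling alveolar macrophages and 2685 to 4349 CPM in interstitial macrophages. Cd74, the invariant chain of MHC class II, stood at 368 to 1849 CPM against 12820 to 37053 CPM. Apoe, a lipid carrier, stood at 33.2 to 164 CPM against 2666 to 16257 CPM. Lyz2, lysozyme, overlapped at 9031 to 16824 CPM against 8501 to 24902 CPM. These levels follow in part from the markers that chose both classes and are a description with no test.

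**Figure D1:**
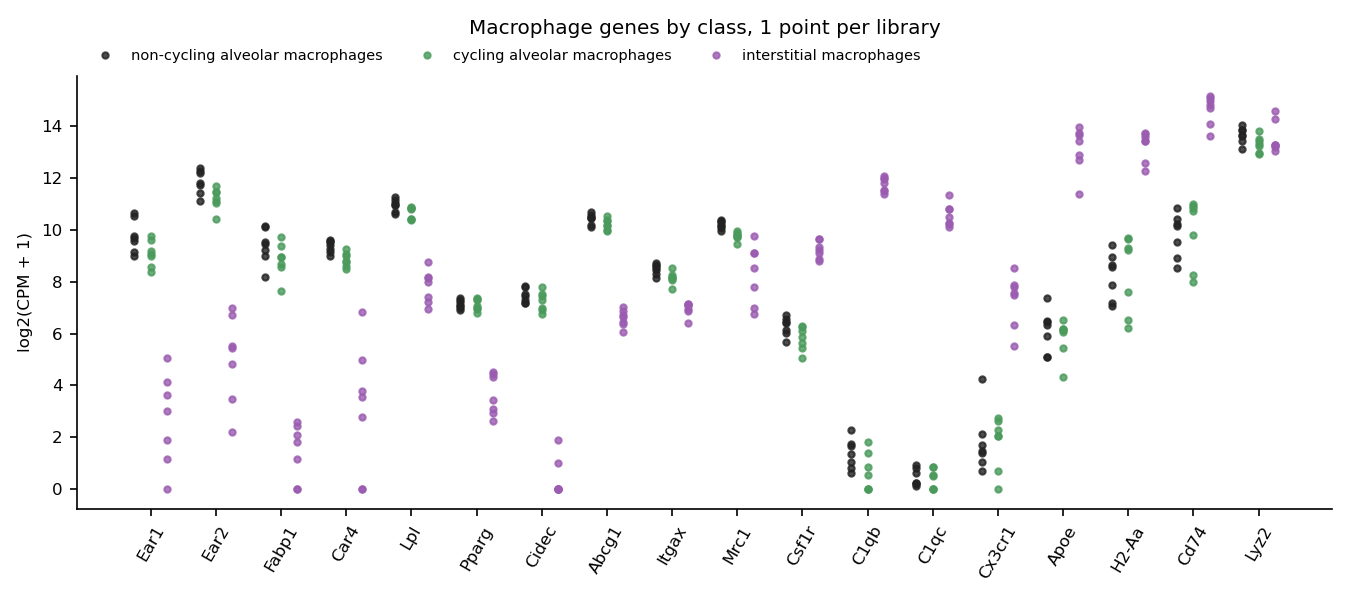
Level of 18 macrophage genes, as log2(CPM + 1), in non-cycling alveolar, cycling alveolar and interstitial macrophages, with 1 point per library. Ear1, Ear2, Fabp1, Pparg and Cidec separate both alveolar classes from interstitial macrophages, while C1qb, Apoe, H2-Aa and Cd74 lie the other way round.

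The number of cells beside a selection limit differed between conditions. At the lower limit of the marker sum, 35 cells had exactly 3 marker UMIs, with a median of 2613 UMIs and 13 Chil3 UMIs. Just outside it, 45 cells with 2 marker UMIs that met every other condition had a median of 3085 UMIs and also 13 Chil3 UMIs. The median selected cell held 34 marker UMIs and 96 Chil3 UMIs. For Chil3, 17 cells lay at the limit of 2 UMIs and 31 just outside at 1. For C1qa the numbers were 60 cells with 1 UMI and 1 cell with 2, and for the CD3 genes 345 cells with 1 UMI and 25 with 2. The cell cycle condition removed the most cells beside the limit, since 727 otherwise eligible cells held 1 UMI of the 4 cycle genes.

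The selection genes varied between libraries and are given as description only. Marco, a scavenger receptor, stood at 627, 562 and 257 CPM in Smad4fl/fl 1 to 3 and at 212, 261, 256 and 379 CPM in Smad4iko 1 to 4. Smad4fl/fl 1 and 2 were the highest, and Smad4fl/fl 3 lay among the Smad4iko libraries. Plet1, a surface glycoprotein, stood at 1799, 2042 and 1982 CPM against 1790, 1716, 1033 and 1330 CPM. Krt79, a keratin, stood at 465, 450 and 465 CPM against 443, 412, 251 and 319 CPM. For both genes the Smad4iko values lay below all Smad4fl/fl values, by little in Smad4iko 1 and 2 and by more in Smad4iko 3 and 4.

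Chil3, a chitinase-like secreted protein, stood at 6557, 7232 and 9529 CPM in Smad4fl/fl and at 7651, 8385, 12513 and 9873 CPM in Smad4iko, with overlapping groups. Atp6v0d2, a proton pump subunit, ranged from 660 to 806 CPM and Siglecf, a sialic acid binding lectin, from 77.1 to 104 CPM, both overlapping. S100a8, a neutrophil protein capped by the selection, stood at 20.8, 36.5 and 54.9 CPM against 83.9, 189, 185 and 71.6 CPM. The groups did not overlap for S100a8. S100a9, capped together with it, stood at 13.9, 17.0 and 92.1 CPM against 91.7, 315, 302 and 76.2 CPM, and overlapped. In the other kept barcodes the 6 neutrophil markers together stood at 848 to 9258 CPM in Smad4fl/fl and at 12876 to 49247 CPM in Smad4iko. The part of neutrophil RNA in the S100a8 and S100a9 levels was not tested.

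The share of non-cycling alveolar macrophages did not differ between genotypes beyond its spread. They were 8.10%, 8.57% and 13.5% of kept barcodes in Smad4fl/fl 1 to 3 and 11.7%, 11.4%, 7.85% and 7.58% in Smad4iko 1 to 4. Smad4fl/fl 3 was the highest of all, and both groups spanned nearly the same range. The means were 10.0% ± 2.97 (SD, n = 3) and 9.63% ± 2.22 (SD, n = 4), a difference of -0.415 percentage points (two-sided exact permutation test, p = 0.8, with 0.0286 the smallest p that 35 splits allow). The difference turned positive, to 1.29 points, without Smad4fl/fl 3 (p = 0.8 by the same exact test).

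Cycling alveolar macrophages, with at least 2 UMIs of the 4 cycle genes, were 654 cells. As a share of all alveolar macrophages they were 10.9%, 12.5% and 9.76% in Smad4fl/fl and 11.4%, 7.75%, 9.33% and 11.5% in Smad4iko (exact permutation p = 0.514). The groups overlapped throughout.

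Smad4 itself did not pass the test in non-cycling alveolar macrophages. It stood at 47.5, 39.9 and 44.8 CPM in Smad4fl/fl 1 to 3 and at 41.8, 38.8, 27.3 and 34.3 CPM in Smad4iko 1 to 4. Smad4iko 2, 3 and 4 lay below all Smad4fl/fl libraries, and Smad4iko 1 lay within their range. The log2 difference was -0.36 ± 0.16 (SE; edgeR quasi-likelihood test, adjusted p = 0.623), and -0.14 without Smad4iko 3 and 4 (edgeR adjusted p = 0.745). In all other kept barcodes of the same libraries Smad4 stood at 81.4, 95.9 and 97.1 CPM against 66.2, 58.3, 44.0 and 59.0 CPM, which did not overlap. Reads of this assay come from the 3' end of the transcript, and the sources used here do not name the floxed exons, so UMIs of a recombined transcript may still be counted. The labels of these cells are therefore not checked by this gene.

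Few genes passed the threshold between genotypes in the summed UMIs of these cells. Of 11177 genes tested with edgeR on UMIs summed per mouse, 4 (0.0358%) had an adjusted p under 0.05, all lower in Smad4iko: Pianp, Klra3, Ccdc153 and Dynlrb2. No gene was called higher. At an unadjusted p under 0.05 edgeR gave 914 genes (8.18%), 356 higher and 558 lower. The groups did not overlap for 686 genes with higher values in Smad4iko (6.14%) and 319 with lower values (2.85%). In simulated counts with the same depths and group sizes the same test found 49% of the 2-fold changes and 86% of the 4-fold changes set, and 12 of its 147 calls were of genes left unchanged. DESeq2, which entered 19293 genes, called 159.

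Pianp, which encodes a membrane ligand of the inhibitory receptor PILR-alpha, was nearly lost from Smad4iko alveolar macrophages. It stood at 18.1, 55.5 and 60.8 CPM in Smad4fl/fl 1 to 3 and at 0.260, 0.321, 0.296 and 0.460 CPM in Smad4iko 1 to 4. Every Smad4iko library was far below every Smad4fl/fl library, and Smad4fl/fl 1 was the lowest of its group. In all, 1218 UMIs in 797 of 2239 cells (35.6%) stood against 11 UMIs in 10 of 2708 cells (0.369%). The pooled rate was 154-fold lower in Smad4iko, with an exact 95% interval of 85.7 to 309 that covers counting error only. The fitted log2 difference was -7.12 ± 0.54 (SE; edgeR adjusted p = 0.00828).

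The drop in Pianp was spread over cells, since no cell held more than 6 of its UMIs, and 13.5%, 43.8% and 45.3% of the Smad4fl/fl cells held at least 1. T cells of the same libraries, shallower at a median of 5005 to 7446 UMIs and defined by at least 5 UMIs of the CD3 genes, held it in 2.35%, 4.68% and 6.84% in Smad4fl/fl and in at most 0.0976% in Smad4iko. It was also seen outside these cells, at 9.75, 18.8 and 22.0 CPM against 0.572, 0.376, 0.578 and 0.389 CPM in the other kept barcodes. The adjusted p rose past the threshold in edgeR, to 0.0705, 0.0897 and 0.0855, when Smad4iko 1, 2 or 3 was left out, while the log2 difference stayed between -7.57 and -6.82 in all alternatives run. Without both Smad4iko 3 and 4 it was -7.25 (edgeR adjusted p = 0.113).

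Klra3, a Ly49 receptor of the kind that natural killer cells use to sense MHC class I, fell likewise. It stood at 10.7, 33.9 and 15.8 CPM in Smad4fl/fl 1 to 3 and at 0.0868, 0.429, 0.593 and 0.153 CPM in Smad4iko 1 to 4. The groups were far apart, with Smad4fl/fl 2 the highest. The counts were 494 UMIs in 301 cells (13.4%) against 10 UMIs in 8 cells (0.295%), a pooled rate 68.6-fold lower in Smad4iko (exact 95% interval 37.0 to 144, counting error only). The fitted log2 difference was -6.07 ± 0.59 (SE; edgeR adjusted p = 0.0208). It passed the threshold with edgeR without Smad4fl/fl 1 (adjusted p = 0.0197) or 2 (0.0381), and not without any other single library (0.056 to 0.0929).

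In the other kept barcodes Klra3 did not separate the genotypes: it stood at 6.35, 54.8 and 65.2 CPM in Smad4fl/fl 1 to 3 and at 17.4, 7.46, 20.5 and 19.7 CPM in Smad4iko 1 to 4. The 6 natural killer cell markers summed to 30.9, 70.0 and 224 CPM in the Smad4fl/fl alveolar macrophages and to 29.2, 24.6, 32.1 and 77.7 CPM in Smad4iko, with overlapping groups. T cells held a Klra3 UMI in 0.648%, 1.74% and 2.13% in Smad4fl/fl and in 1.07% to 1.29% in Smad4iko. The shares of alveolar macrophages with Klra3 lay above those of T cells in every Smad4fl/fl library, at 6.73% to 23.2%. They lay below those of T cells in every Smad4iko library, at 0.131% to 0.606%. The part of RNA from other cells in the Klra3 values was not tested. Klra genes form a cluster of close paralogs on chromosome 6, and reads may be shared between them, so the identity of the member counted is uncertain.

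Both genes lie on chromosome 6, and their promoter windows are shown because they carry the clearest difference in these cells. The windows run from 250 bases before to 50 after an annotated start, from RefSeq on GRCm38.p6. The first of 3 annotated Pianp starts is on the plus strand at chr6:124996470-124996769, and Klra3 starts on the minus strand at chr6:130337577-130337876. Capitals mark GTCTG or its reverse complement CAGAC, a SMAD-binding sequence, and both windows read 5′ to 3′ on the strand of the gene.
Pianp: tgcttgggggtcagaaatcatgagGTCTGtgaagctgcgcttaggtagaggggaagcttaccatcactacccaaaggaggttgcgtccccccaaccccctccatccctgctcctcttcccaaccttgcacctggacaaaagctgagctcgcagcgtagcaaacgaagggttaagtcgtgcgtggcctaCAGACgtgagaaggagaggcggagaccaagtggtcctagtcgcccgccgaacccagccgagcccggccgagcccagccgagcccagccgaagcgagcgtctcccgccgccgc
Klra3: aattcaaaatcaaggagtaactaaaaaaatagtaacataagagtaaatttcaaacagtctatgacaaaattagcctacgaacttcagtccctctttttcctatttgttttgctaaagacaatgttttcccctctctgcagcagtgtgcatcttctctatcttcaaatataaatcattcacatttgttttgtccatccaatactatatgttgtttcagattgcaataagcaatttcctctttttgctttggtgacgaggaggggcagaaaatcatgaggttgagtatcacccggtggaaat
The Pianp window held 2 matches, while the Klra3 window held none. The other Pianp windows overlap each other and held the same single match. GTCTG on either strand was found in 16292 of 32851 promoter windows of this length (49.6%), so a match is a description and not a binding site. The palindrome GTCTAGAC was in neither window and in 70 of all windows (0.213%).

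Ccdc153 and Dynlrb2, genes of motile cilia, had a different make-up. Ccdc153 stood at 8.13, 4.42 and 12.5 CPM in Smad4fl/fl 1 to 3 and at 0.347, 0.107, 0.148 and 0.307 CPM in Smad4iko 1 to 4, with a log2 difference of -5.15 ± 0.50 (SE; edgeR adjusted p = 0.0208). Dynlrb2, a dynein light chain, stood at 10.5, 4.55 and 9.69 CPM against 0.0868, 0.107, 0 and 0.460 CPM, a log2 difference of -5.71 ± 0.63 (SE; edgeR adjusted p = 0.0378). The groups did not overlap, but a handful of barcodes carried the counts. Ccdc153 had 222 UMIs in 13 Smad4fl/fl cells, with up to 72 in a single barcode, and all 33 of Smad4fl/fl 2 came from 1 barcode. Dynlrb2 had 204 UMIs in 12 Smad4fl/fl cells, up to 69 in a single barcode.

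A list of 12 genes of ciliated airway cells, Ccdc153 and Dynlrb2 among them, was added after these values were seen. For 12 of 12 genes all Smad4iko libraries were lower than all Smad4fl/fl libraries (all genes: 2.85%). The list was chosen with these values known, so this count is a description only. Its summed level was 79.7, 34.1 and 92.1 CPM in Smad4fl/fl and 2.07 to 4.75 CPM in Smad4iko. Among the selected cells, barcodes with at least 5 ciliated UMIs numbered 4, 2 and 2 in Smad4fl/fl 1 to 3 and 1 in all of Smad4iko. Among the other kept barcodes they numbered 153, 32 and 17 in Smad4fl/fl 1 to 3 and 26, 13, 8 and 25 in Smad4iko 1 to 4. An alternative chosen after seeing the data left out the 123 barcodes with at least 5 UMIs of ciliated, mesenchymal or endothelial genes. Pianp and Klra3 were then the 2 genes called, with edgeR adjusted p-values of 0.00243 and 0.0122. Ccdc153 and Dynlrb2 no longer passed the filter on low counts. Both are members of the ciliated list, so their loss follows from the rule and is no separate evidence. In cycling alveolar macrophages Ccdc153 was highest in Smad4iko 4, at 96.5 CPM, and at most 1.21 CPM elsewhere.

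**Figure D2:**
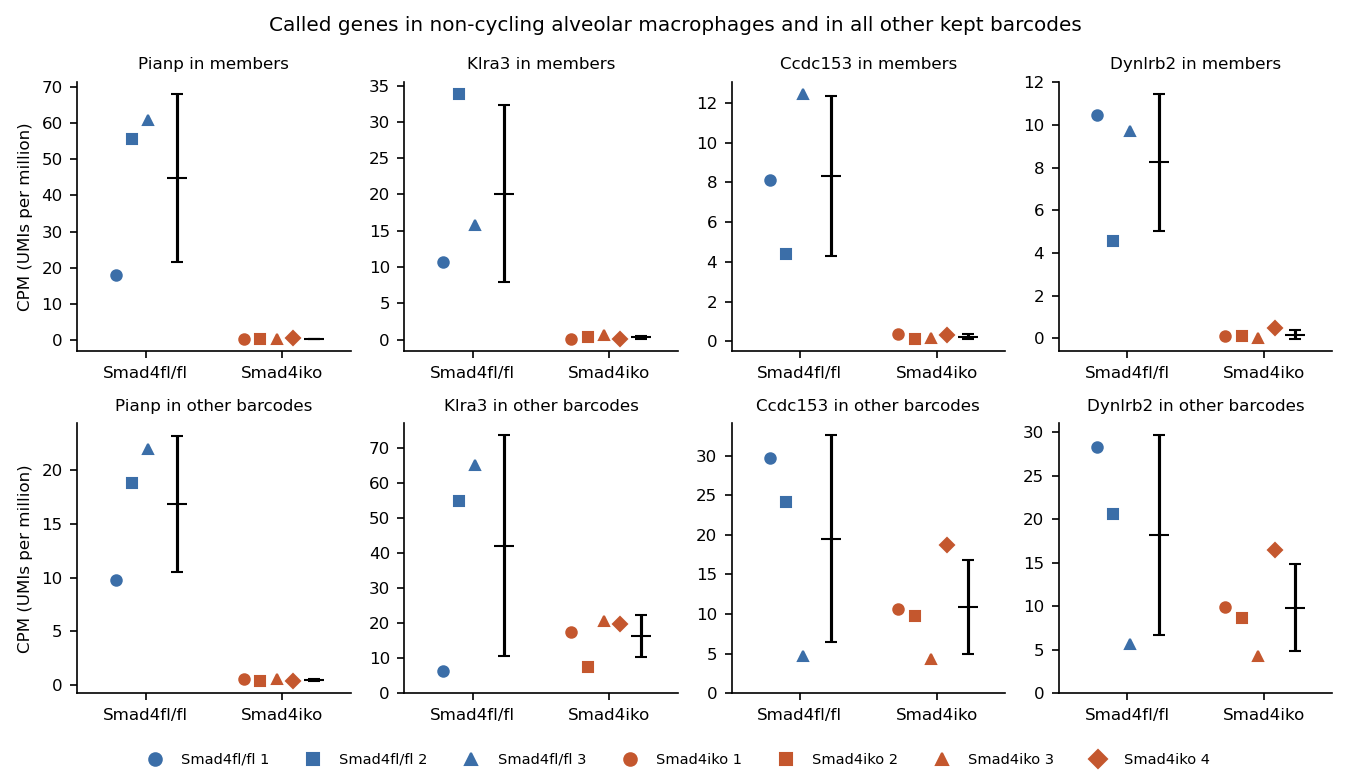
Level in CPM of the 4 called genes in non-cycling alveolar macrophages (upper panels) and in all other kept barcodes (lower panels), 1 point per library, with the mean and SD of each group as a bar. Pianp separates the groups in both sets of cells, and the other 3 genes only in the alveolar macrophages.

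Among genes that missed the threshold, those with higher values and the smallest p-values were Apobec1 and Clec12a, which are named here after their values were seen. Apobec1, a cytidine deaminase that edits RNA, stood at 14.4, 17.5 and 18.8 CPM in Smad4fl/fl 1 to 3 and at 34.1, 37.3, 32.6 and 37.6 CPM in Smad4iko 1 to 4. Clec12a, an inhibitory C-type lectin receptor, stood at 17.7, 19.1 and 24.5 CPM against 43.1, 62.5, 87.6 and 58.9 CPM. Neither gene's groups overlapped. The log2 differences were 0.99 ± 0.13 (SE; edgeR adjusted p = 0.0606) and 1.54 ± 0.24 (SE; edgeR adjusted p = 0.0985). Under DESeq2 both passed, with adjusted p-values of 6.8e-06 and 1.25e-06.

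Ptger4, a receptor for prostaglandin E2 also named after its values were seen, stood at 64.8, 67.1 and 73.2 CPM in Smad4fl/fl and at 38.9, 43.7, 47.6 and 44.0 CPM in Smad4iko. Its groups were apart, with a log2 difference of -0.72 ± 0.10 (SE; edgeR adjusted p = 0.0707). Sdc3, a cell surface proteoglycan named on the same basis, stood at 86.2, 122 and 75.1 CPM against 171, 177, 217 and 214 CPM, a log2 difference of 0.98 ± 0.18 (SE; edgeR adjusted p = 0.177). All Smad4iko libraries exceeded the highest Smad4fl/fl library.

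Pianp, Klra3, Apobec1 and Clec12a all lie near the Rosa26 locus that carries the creERT2 insertion in Smad4iko mice and not in their controls. On mm10 with GENCODE M21, Gt(ROSA)26Sor spans 113067428 to 113077333 of chromosome 6. Apobec1 (122577792 to 122602444) lies 9.52 Mb from it, Pianp (124996694 to 125003096) 11.9 Mb, Clec12a (129342691 to 129365303) 16.3 Mb and Klra3 (130323289 to 130337574) 17.3 Mb. Of 231 tested genes within 25 Mb of Rosa26, 2 were called, against 0 of 323 elsewhere on chromosome 6 and 2 of 10615 on other chromosomes. In the window 34 genes (14.7%) had an unadjusted edgeR p under 0.05. This share was 10.5% of 323 genes elsewhere on chromosome 6 and 7.96% of 10615 genes on other chromosomes. Groups did not overlap for 12.1%, 11.8% and 8.84% of these genes. The Cre allele with its flanking chromosome and recombination of Smad4 cannot be told apart in this design, since the Smad4iko mice carried the allele and the controls did not.

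The window held further myeloid receptor genes, also named after their values were seen. Clec4a1, a C-type lectin, stood at 2.17, 4.55 and 2.86 CPM in Smad4fl/fl and at 7.29, 8.78, 22.5 and 16.1 CPM in Smad4iko. Clec4a3, from the same gene cluster, stood at 129, 159 and 148 CPM against 198, 220, 273 and 265 CPM. Klra2, a neighbour of Klra3, went the other way from it, at 72.8, 83.1 and 98.6 CPM against 112, 123, 149 and 140 CPM. All 3 genes had higher values in every Smad4iko library and none passed the edgeR threshold (adjusted p = 0.348, 0.314 and 0.432). C1rb, a complement protease gene at low level, stood at 2.71, 2.54 and 1.38 CPM in Smad4fl/fl and had no UMI in any Smad4iko library, where 3 counts would be 0.260 to 0.460 CPM (edgeR adjusted p = 0.129). Hebp1, a heme-binding protein 22.1 Mb away, was similar in both groups, at 429 to 459 CPM against 396 to 546 CPM.

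**Figure D3:**
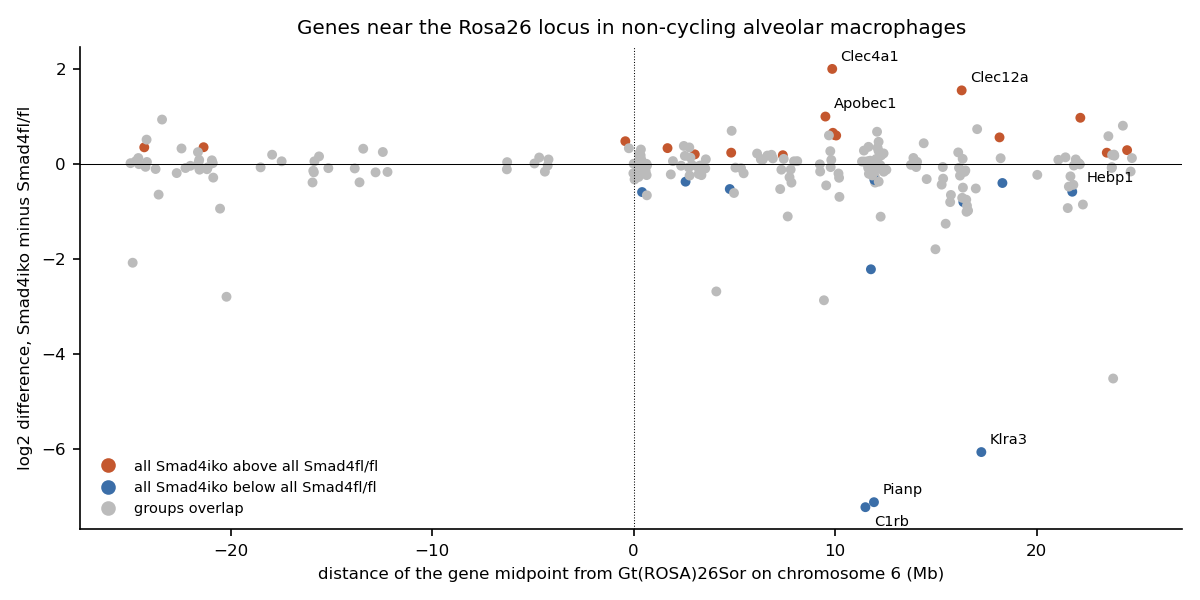
Fitted log2 difference between Smad4iko and Smad4fl/fl non-cycling alveolar macrophages against the distance in Mb of each tested gene from Gt(ROSA)26Sor on chromosome 6, 1 point per gene, coloured by whether the groups overlap. Pianp and Klra3 lie 11.9 and 17.3 Mb away and far below 0, while the value of C1rb rests on a group with no UMI and depends on the prior count.

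In 21 gene lists of alveolar macrophage biology edgeR called no member (all genes: 0.0358% called). DESeq2 called 1 or 2 members in 10 of these lists, and 112 of all 11177 genes. The members are given by level, by whether groups overlap and by the list's median log2 difference, set beside a median of -0.02 over all 11177 genes. Of all genes, 6.14% were above and 2.85% below in all Smad4iko libraries, the background for each count of members above or below. The lists were not independent of earlier results of these data.

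Among alveolar macrophage identity genes edgeR called none and DESeq2 called Ear1 and Fabp4, both higher (all genes: 112 of 11177 called by DESeq2). Of 29 tested members 4 were higher in all Smad4iko libraries and none lower in all (all genes: 6.14% and 2.85%), and the median was 0.06. Ear1 stood at 567, 759 and 516 CPM in Smad4fl/fl 1 to 3 and at 869, 829, 1486 and 1598 CPM in Smad4iko 1 to 4. Smad4iko 3 and 4 were the highest. The log2 difference was 0.89 ± 0.25 (SE; edgeR adjusted p = 0.446; DESeq2 adjusted p = 0.0272), and 0.45 with Smad4iko 3 and 4 marked by a covariate. Its paralog Ear2 was more abundant, at 2195, 4754 and 2762 CPM against 3565, 3420, 4991 and 5333 CPM, and overlapped.

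Fabp4, a fatty acid binding protein, stood at 165, 177 and 188 CPM in Smad4fl/fl and at 519, 463, 256 and 242 CPM in Smad4iko, here with Smad4iko 1 and 2 the highest. Its log2 difference was 1.02 ± 0.31 (SE; edgeR adjusted p = 0.484; DESeq2 adjusted p = 0.0364). With Smad4iko 3 and 4 marked by a covariate, Fabp4 was the only gene called, at 1.46 (edgeR adjusted p = 0.0226). That fit compares Smad4iko 1 and 2, the libraries with the higher values, with Smad4fl/fl. With Smad4iko 3 and 4 left out, the log2 difference of Fabp4 was 1.465 and it was not called (edgeR adjusted p = 0.0685). Axl, a receptor for dying cells, stood at 241, 291 and 286 CPM against 323, 423, 336 and 440 CPM. Mrc1, the mannose receptor, stood at 1074, 1125 and 989 CPM against 1263, 1184, 1296 and 1346 CPM. Both had all Smad4iko libraries on top, at edgeR adjusted p-values of 0.579 and 0.629.

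The 10 genes of GM-CSF signalling had a median of 0.09 and no member without overlap. Csf2rb, the shared beta chain of the receptor, stood at 306, 293 and 313 CPM in Smad4fl/fl and at 361, 367, 134 and 216 CPM in Smad4iko, so that Smad4iko 1 and 2 were above the Smad4fl/fl range and Smad4iko 3 and 4 below it. Csf2ra, the ligand-binding chain, ranged from 206 to 284 CPM with overlap. Spi1, the myeloid transcription factor PU.1, stood at 250, 320 and 333 CPM against 327, 360, 342 and 344 CPM. Cish, a feedback inhibitor of cytokine receptors, had the smallest p of the list at a log2 difference of -0.46 ± 0.19 (SE; edgeR adjusted p = 0.591).

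Of 29 lipid uptake, storage and efflux genes 8 were above and 1 below in all Smad4iko libraries (all genes: 6.14% and 2.85%), with a median of 0.11. Pla2g15, a lysosomal phospholipase that degrades surfactant lipid, stood at 105, 115 and 118 CPM against 149, 167, 159 and 167 CPM, a log2 difference of 0.45 ± 0.10 (SE; edgeR adjusted p = 0.381; DESeq2 adjusted p = 0.0058). Its Smad4iko libraries were tightly grouped above those of Smad4fl/fl. Scarb1, Mgll, Lipa, Hadha, Cpt1a, Nceh1 and the low-level Pla2g7 were the other members with every Smad4iko library on top.

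Among the 24 sterol and fatty acid synthesis genes the median was -0.16, with 3 below and 0 above in all Smad4iko libraries. Srebf2, the sterol-sensing transcription factor, stood at 54.7, 55.4 and 48.5 CPM in Smad4fl/fl and at 44.1, 44.4, 41.6 and 46.0 CPM in Smad4iko (log2 difference -0.32 ± 0.09 SE, edgeR adjusted p = 0.446). Cyp51 and Insig1 were the other members below. Abcg1, a cholesterol exporter and the most abundant gene of the lipid list, stood at 1099, 1410 and 1157 CPM against 1464, 1652, 1394 and 1538 CPM. Its groups overlapped between Smad4fl/fl 2 and Smad4iko 3.

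The TGF-beta and BMP list, the pathway that SMAD4 serves, had 31 tested members, 2 of them below and 3 above in all Smad4iko libraries (all genes: 2.85% and 6.14%), and a median of -0.16. Pmepa1, a TGF-beta target that restrains the pathway, stood at 150, 130 and 102 CPM in Smad4fl/fl 1 to 3 and at 69.3, 48.7, 38.4 and 84.5 CPM in Smad4iko 1 to 4. All Smad4iko libraries were lower, with a log2 difference of -1.14 ± 0.25 (SE; edgeR adjusted p = 0.342; DESeq2 adjusted p = 0.0043). Tgfbi, a secreted matrix protein named for its induction by TGF-beta, stood at 349, 282 and 264 CPM against 226, 231, 200 and 253 CPM, a log2 difference of -0.45 ± 0.13 (SE; edgeR adjusted p = 0.446).

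Id2, an inhibitor of bHLH factors known as a BMP and TGF-beta target, was higher in all Smad4iko libraries, at 142, 220 and 217 CPM against 327, 250, 292 and 353 CPM (edgeR adjusted p = 0.51). Skil, a corepressor of SMADs and the most abundant member, stood at 487, 447 and 487 CPM against 451, 528, 327 and 302 CPM. Tgif1, another corepressor, stood at 276, 267 and 260 CPM against 323, 491, 117 and 80.8 CPM, again split within Smad4iko between replicates 1 and 2 and replicates 3 and 4. Of the 31 members 14 were highest in Smad4fl/fl 1 (45.2%, against 21% of all genes), the library with the mesenchymal UMIs. The part of those UMIs in the list's values was not tested. Without the mixed barcodes the median was -0.10, and with Smad4iko 3 and 4 marked by a covariate it was -0.05.

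Of 32 scavenger, lectin and pattern recognition receptors 10 were above and 0 below in all Smad4iko libraries (all genes: 6.14% and 2.85%), with a median of 0.16. Cd300a, an inhibitory phospholipid receptor, stood at 12.3, 20.7 and 23.0 CPM against 41.0, 44.5, 49.0 and 28.2 CPM, a log2 difference of 1.05 ± 0.27 (SE; edgeR adjusted p = 0.432; DESeq2 adjusted p = 0.0232). Fcgr4, an activating IgG receptor, stood at 40.6, 53.4 and 58.3 CPM against 74.1, 67.2, 123 and 108 CPM, a log2 difference of 0.79 ± 0.22 (SE; edgeR adjusted p = 0.446; DESeq2 adjusted p = 0.0495), and 0.45 with the covariate for Smad4iko 3 and 4. The other members were Clec4a2, Lair1, Fcgr1, Pirb, Ly96, Axl, Cd300lf and Itgb2. Clec4a2 lies within the Rosa26 window. Smad4fl/fl 1 was the lowest of all 7 libraries for 15 of the 32 members, against 2086 of all 11177 genes.

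Of 29 lysosomal genes 5 were above and 0 below (all genes: 6.14% and 2.85%), with a median of 0.05. Grn, progranulin, stood at 414, 458 and 432 CPM against 531, 587, 663 and 729 CPM (log2 difference 0.46 ± 0.12 SE, edgeR adjusted p = 0.432, DESeq2 adjusted p = 0.0107). Psap, the saposin precursor for sphingolipid breakdown, stood at 2351, 2441 and 2160 CPM against 3521, 3349, 2724 and 3118 CPM. Ctsd, an aspartic protease, stood at 3573, 3803 and 3299 CPM against 4237, 3847, 3803 and 4160 CPM, with Smad4fl/fl 2 and Smad4iko 3 nearly equal. Lyz2, the most abundant member, overlapped at 12793, 14852 and 14971 CPM against 12859, 9031, 10932 and 16824 CPM.

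Cd74 and H2-Aa of the class II pathway varied among the Smad4iko mice. Cd74 stood at 1188, 1153 and 1364 CPM in Smad4fl/fl 1 to 3 and at 748, 368, 483 and 1849 CPM in Smad4iko 1 to 4. H2-Aa, an MHC class II alpha chain, followed it at 406, 381 and 502 CPM against 234, 133, 143 and 687 CPM. Smad4iko 4 was the highest and the other 3 Smad4iko libraries the lowest. The 11 genes of the class II list had a median of -0.35, with 1 member above and 0 below in all Smad4iko libraries, and a median of -0.79 with Smad4iko 3 and 4 marked by a covariate. That member was Ctss, the protease that trims the invariant chain, at 1762, 1808 and 1985 CPM against 2155, 2044, 2344 and 2695 CPM.

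The 19 class I genes had a median of -0.01. H2-Q7, a nonclassical class I gene, was below in all Smad4iko libraries at 30.2, 21.8 and 28.6 CPM against 16.4, 20.6, 9.04 and 10.4 CPM (edgeR adjusted p = 0.5). B2m, the shared light chain, overlapped at 1577 to 1686 CPM against 1499 to 2068 CPM. Interferon-stimulated genes were low in all libraries. The median over 27 of them was 0.13, with 2 above, Ifi27l2a and Trim30a. Ifi27l2a stood at 39.2, 38.4 and 38.9 CPM against 50.2, 55.9, 84.9 and 76.7 CPM, at 7.29% of its level in the other barcodes. The part of RNA from other cells in that value was not tested.

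Many inflammatory genes, and fewer immediate early and heat shock genes, were split within the Smad4iko group. Cxcl2, a neutrophil-attracting chemokine, stood at 3841, 6097 and 5687 CPM in Smad4fl/fl 1 to 3 and at 4642, 6818, 2100 and 1532 CPM in Smad4iko 1 to 4. Egr1, an immediate early transcription factor, stood at 837, 1365 and 1796 CPM against 803, 1455, 218 and 351 CPM. Nfkbia, the feedback inhibitor of NF-kB, stood at 989, 950 and 1176 CPM against 922, 1282, 493 and 315 CPM. For all 3 genes Smad4iko 3 and 4 were the lowest and Smad4iko 1 and 2 lay within or near the Smad4fl/fl range. Other abundant members were not split this way: Ccl6, a chemokine, stood at 5266, 3700, 4941 and 5546 CPM in Smad4iko 1 to 4. Dusp1, an immediate early phosphatase, stood there at 776, 749.9, 855 and 1257 CPM.

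Of 33 inflammatory genes 22 (66.7%) were lower in both Smad4iko 3 and 4 than in the other 5 libraries, against 11.9% of all genes. This held for 10 of 22 immediate early genes (45.5%), 10 of 20 heat shock genes (50%) and 9 of 21 redox genes (42.9%). The median log2 differences by genotype were -0.39, -0.24, -0.31 and -0.11. With Smad4iko 3 and 4 marked by a covariate they were 0.05, -0.12, -0.03 and 0.00. A processing or dissociation batch is not given in the labels, and its part in this split was not tested.

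Of 33 inflammatory genes 3 were below in all Smad4iko libraries, as were 2 of 22 immediate early genes (all genes: 2.85%). This held for 0 of 20 heat shock genes and 1 of 21 redox genes. No member of these lists was above in all Smad4iko libraries (all genes: 6.14%). Cxcl3, a chemokine related to Cxcl2, stood at 52.6, 75.5 and 87.9 CPM in Smad4fl/fl and at 38.0, 30.6, 6.07 and 10.7 CPM in Smad4iko, a log2 difference of -1.77 ± 0.55 (SE; edgeR adjusted p = 0.504). Socs3, a cytokine feedback inhibitor, stood at 43.7, 23.2 and 24.7 CPM against 18.0, 14.8, 12.9 and 17.0 CPM (edgeR adjusted p = 0.369; DESeq2 adjusted p = 0.0258). Osm, Jund and Btg2 were also below in all Smad4iko libraries. Tnf, named after its values were seen, stood at 534, 898 and 929 CPM against 476, 551, 224 and 153 CPM, and overlapped by Smad4iko 2 alone.

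Hspb1, a small heat shock protein, stood at 107, 11.5 and 5.45 CPM in Smad4fl/fl and at 5.47, 0.964, 0.593 and 1.84 CPM in Smad4iko. The log2 difference was -4.11, and -1.92 without Smad4fl/fl 1 (edgeR adjusted p = 0.433 with all libraries). Its high value came from Smad4fl/fl 1, which was the highest of the 7 libraries for 13 of 20 heat shock genes (65%). The abundant chaperone Hspa8 stood at 3864, 3367 and 3596 CPM against 3416, 2939, 2035 and 2466 CPM.

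Of 21 heme and iron genes 4 (19%) were lower in both Smad4iko 3 and 4 than in the other libraries and 6 (28.6%) higher, near the 11.9% and 21.9% of all genes. Hmox1, the heme-degrading enzyme, stood at 2050, 1425 and 1182 CPM in Smad4fl/fl 1 to 3 and at 2852, 2245, 198 and 157 CPM in Smad4iko 1 to 4. Smad4iko 1 and 2 were the highest and Smad4iko 3 and 4 the lowest of all libraries. Fth1, the ferritin heavy chain, stood at 18672, 18743 and 20891 CPM against 18463, 18044, 12673 and 11793 CPM, while Ftl1, the light chain, stood at 8283, 9411 and 10398 CPM against 9407, 8715, 8518 and 6786 CPM. Alas1, the first enzyme of heme synthesis, stood at 159, 112 and 132 CPM against 88.3, 81.6, 49.3 and 64.6 CPM, below in every Smad4iko library at a log2 difference of -0.97 ± 0.22 (SE; edgeR adjusted p = 0.369; DESeq2 adjusted p = 0.0111). Over 21 genes the median was 0.02, with 2 above, Fech and Slc48a1, and 2 below, Alas1 and Fth1.

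Globin transcripts moved with the same libraries. The 6 erythroid genes summed to 11.4, 28.9 and 125 CPM in Smad4fl/fl alveolar macrophages and to 680, 75.1, 4621 and 2052 CPM in Smad4iko 1 to 4. In the other barcodes they summed to 107, 175 and 192 CPM against 824, 816, 10078 and 4902 CPM. The order of libraries was nearly the same in both sets of barcodes. The part of free RNA from red cells in these values was not tested.

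**Figure D4:**
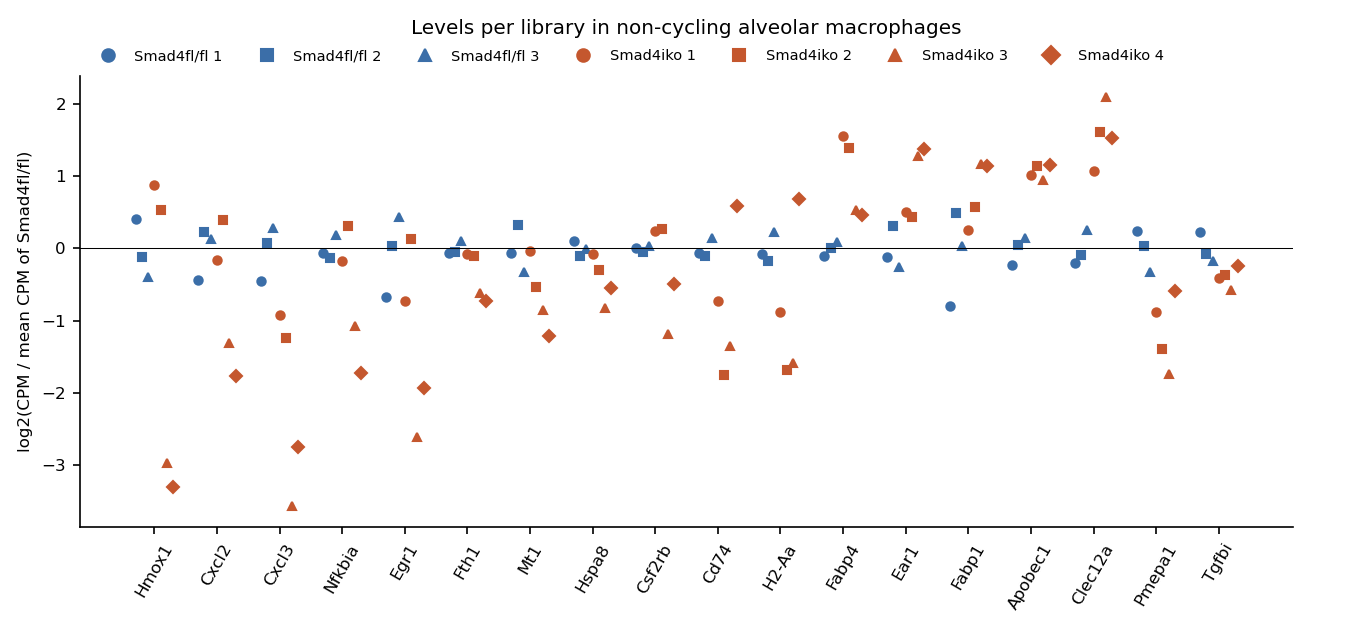
Level of 18 genes in each library of non-cycling alveolar macrophages as log2 of the ratio to the mean CPM of the 3 Smad4fl/fl libraries, 1 point per library. Smad4iko 3 and 4 are lowest for Hmox1, Cxcl2, Cxcl3, Nfkbia and Egr1, while Apobec1, Clec12a, Ear1 and Fabp4 are higher in all 4 Smad4iko libraries.

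The remaining lists held few members without overlap. Of 12 complement genes, Cr1l alone was above in all Smad4iko libraries, and C3 stood at 129, 83.7 and 64.6 CPM against 52.6, 46.1, 48.9 and 83.3 CPM. The median of the complement genes was -0.15, and -0.74 with Smad4iko 3 and 4 marked by a covariate. Of 17 matrix and protease genes none was without overlap, and their median was -0.16, or 0.23 with that covariate. Mmp12, macrophage elastase, stood at 13.4, 9.64 and 10.0 CPM against 64.6, 13.3, 23.0 and 31.4 CPM, and Spp1, osteopontin, at 1010, 799 and 1379 CPM against 1002, 585, 1045 and 757 CPM. The 29 nuclear genes of oxidative phosphorylation had a median of 0.03 and no member without overlap.

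Of 21 glycolysis and hypoxia genes Pdk1 and Pgam1 were above, with a median of 0.04, and Gapdh stood at 1149, 1096 and 1214 CPM against 1264, 1156, 1359 and 1331 CPM. Of 26 residual cell cycle genes Mcm3 was above and Ccnd1 below, with a median of 0.02. The 18 apoptosis and p53 genes had a median of -0.13 and none without overlap. Prdx6, a peroxiredoxin, was the redox gene below in all Smad4iko libraries, at 112, 85.8 and 99.0 CPM against 78.5, 79.5, 78.7 and 83.7 CPM.

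**Figure D5:**
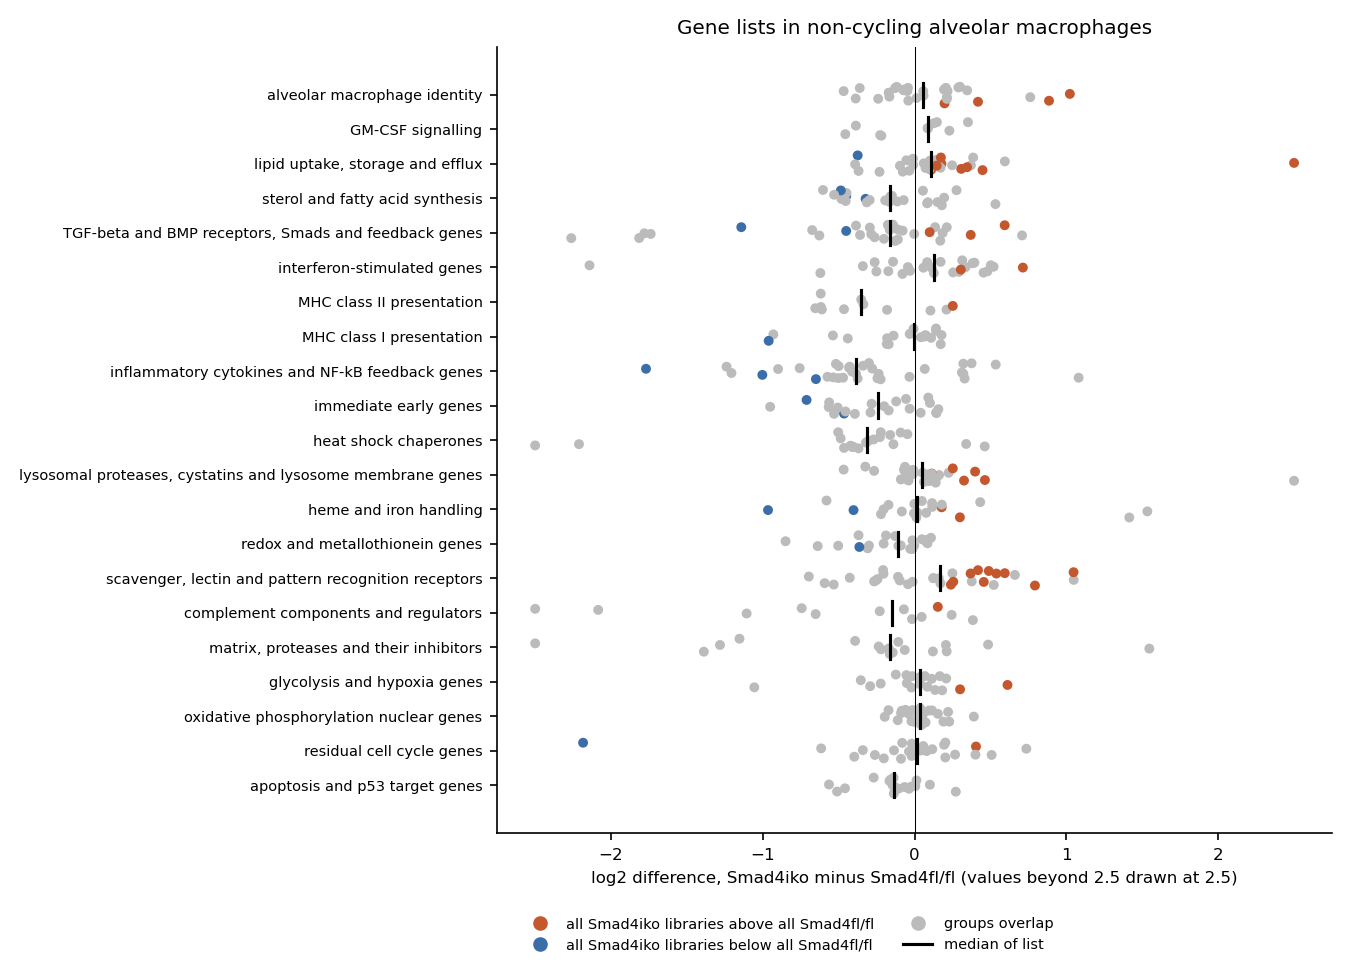
Fitted log2 difference of each tested member of 21 gene lists in non-cycling alveolar macrophages, coloured by whether and in which direction the groups did not overlap, with the median of each list as a bar. The medians lie between -0.39 and 0.16, and the scavenger receptor list has the most members above, 10 of 32.

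Cells within a library also differed from one another. Each cell was thinned to 3000 UMIs, which left out 49, 6 and 18 shallower cells of Smad4fl/fl 1 to 3 and 1, 17, 8 and 5 of Smad4iko 1 to 4. The Fano factor, the variance over the mean, was then compared between genes with a mean of at least 0.5 UMIs. The highest mean Fano factors over libraries belonged to transcripts typical of other cells, the globin gene Hbb-bs (90.5) and Scgb1a1 of club cells (159, from 0.972 to 998 by library, so that 1 library carries most of the mean). Of genes that macrophages make, Malat1 had a mean Fano factor of 17.2, Cxcl2 one of 13.5 and Cd74 one of 13.0.

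The cell-to-cell spread of class II genes followed the library means. At 3000 UMIs, 43.5%, 40.7% and 47.8% of Smad4fl/fl cells and 21.9%, 12%, 22.7% and 51.3% of Smad4iko cells held a UMI of H2-Aa. Without thinning the shares were 59.0%, 57.3% and 69.5% against 42.2%, 26.1%, 44.1% and 66.3%. T cells, which should lack it, held H2-Aa in 6.93% to 17.9% at their lower depth. In interstitial macrophages H2-Aa stood at 4957 to 13822 CPM, against at most 687 CPM here. Fabp4 was found in 26.3%, 27.9% and 29.1% of thinned Smad4fl/fl cells and in 54.6%, 53.2%, 41.0% and 33.7% of Smad4iko cells, so that more cells held it in every Smad4iko library. Without thinning the shares were 39.1%, 45.8% and 50.7% against 78.2%, 75.4%, 62.3% and 57.9%. In T cells the share was 0.184% to 2.41%. Hmox1 was found in 93.7%, 88.0% and 85.0% against 95.9%, 95.1%, 38.0% and 31.5% of thinned cells. Without thinning the shares were 97.2%, 95.6% and 95.7% against 99.3%, 98.3%, 72.0% and 70.9%, lowest in Smad4iko 3 and 4. In T cells it was 2.02% to 12.8%.

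Transcripts of other cell types were present beside the erythroid and mesenchymal ones given above, and their part in the results was not tested. Interstitial macrophage markers summed to 8.03 to 37.8 CPM in non-cycling alveolar macrophages, T cell markers to 11.8 to 43.3 CPM and dendritic cell markers to 5.37 to 19.1 CPM. Neutrophil markers stood at 58.2 to 184 CPM in Smad4fl/fl and 207 to 561 CPM in Smad4iko. Alveolar type 2 and club cell markers ranged from 258 to 915 CPM against 25.1 to 839 CPM. Endothelial markers ranged from 24.1 to 250 CPM against 10.9 to 68.6 CPM.

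No gene was shown to respond to genotype differently here than in interstitial macrophages. Limma, applied to the difference of log2 CPM between both classes within each mouse, called 0 of 10059 genes (0%), with 562 at an unadjusted p under 0.05. Pianp was low in Smad4iko in both classes, at 27.7, 87.9 and 65.9 CPM against 0, 0, 4.37 and 1.10 CPM in interstitial macrophages. The difference of its log2 effects was -1.94 ± 0.44 (SE; limma adjusted p = 0.749). In simulated data this comparison found 32.6% of genes whose effects differed 4-fold. The simulated second class had the gene means and dispersions of alveolar macrophages and only the UMI totals of interstitial ones. The share found may therefore differ in the real comparison.

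The same test against cycling alveolar macrophages called 0 of 11116 genes (0%), with 716 at an unadjusted p under 0.05. Pianp stood there at 11.0, 43.4 and 65.4 CPM in Smad4fl/fl and at 0, 0.772, 0 and 0 CPM in Smad4iko. Klra3 stood at 14.1, 44.0 and 26.7 CPM in Smad4fl/fl and had no UMI in the 343 Smad4iko cells. Ear1 was highest in Smad4iko 3 and 4 in cycling cells too, at 329, 540 and 384 CPM against 513, 575, 786 and 865 CPM. For Ear1 the difference of the log2 effects was 0.21 ± 0.16 (SE; limma adjusted p = 0.916).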

How the data were processed

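Single lung cells from 3 Smad4fl/fl and 4 Smad4iko mice were profiled with the 10x Genomics 3' assay. Each mouse gave 1 library, so the mouse is the replicate. The authors deposited raw UMI counts per gene and barcode. Cell Ranger 6.1.1 wrote them, per the file headers, and fastp, UMI-tools and the mm10 build appear in the submitters' processing notes with no order given.

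Barcodes were kept with at least 600 UMIs, at least 300 genes and at most 20% mitochondrial UMIs. Scrublet in scanpy 1.11.5 predicted doublets at an expected rate of 6%, which were left out only as an alternative. For each gene, the counts of the selected cells were added up per library and compared between genotypes in edgeR 4.0.16, by its quasi-likelihood method with TMM factors and the filterByExpr filter. P-values were adjusted by Benjamini-Hochberg over all genes tested, with a threshold of 0.05. Of 31253 gene IDs, 31107 matched GENCODE M21. Differences between cell classes were fitted with limma 3.58.1 on log2 CPM computed here (prior count 2, a mean of at least 3 UMIs per library in both classes). The exact permutation test of shares was two-sided and ran over 35 splits. Both fits were tested on simulated data. Intervals and count floors cover counting error only.

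Alternatives were DESeq2 1.42.0, RLE factors, no filter on low counts, a replicate block, each library left out, Smad4iko 3 and 4 as a covariate or left out, a sex covariate, stricter cell filters and selection, and equal cell numbers.

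The named genes are Smad4, genes past the threshold, and from each of 21 lists the 2 of smallest p and the 3 of highest level. Some genes that this rule names are not reported here. Other genes were named after their values were seen, among them list members given only because their groups did not overlap. The cells, lists and rules were chosen with earlier results of these data known.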

Additional observations from a re-analysis of the deposited data

Results flagged for a closer look

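In the 4 Smad4iko libraries, 106 values were tested for a library far from the others by Dixon's criterion, and 2 exceeded it, where chance flags about 1 in 20. Serping1, which encodes the C1 inhibitor of the complement system, stood at 8.42 CPM in Smad4iko 1 against 0.296 to 0.460 CPM in Smad4iko 2 to 4. In Smad4fl/fl 1 to 3 it stood at 84.3, 8.30 and 1.21 CPM, the same order as the summed mesenchymal markers there, and those markers stood at 126 CPM in Smad4iko 1 against 7.70 to 11.5 CPM in Smad4iko 2 to 4. The part of mesenchymal RNA in the value was not tested. Ccnd2, the cyclin D2 gene, stood at 468.9 CPM in Smad4iko 2 against 544 to 559 CPM in the other Smad4iko libraries, and at 450 to 524 CPM in Smad4fl/fl.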

How the results depend on the processing

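The count of genes called by genotype was 4 with edgeR. It was 159 with DESeq2 (50 higher, 109 lower), 9 with RLE factors, 24 without a filter on low counts, 10 with the stricter cell filter, 12 without predicted doublets, 8 with equal cells per library, 1 with Smad4iko 3 and 4 as a covariate and 0 with both left out. With a sex covariate inferred from sex-linked genes it was 5, with S100a4 and Clec12a higher and Dynlrb2 not called. With the stricter selection it was 3: Pianp, Klra3 and Ces1d. In alternatives chosen after seeing the data the count was 2 without the airway lists and 2 without mixed barcodes. It was 8 among genes at 10% or more of their level in the other barcodes. Ccdc153 and Dynlrb2 belong to the airway lists, so leaving these out removed both genes by design. The rule for mixed barcodes counts their UMIs too. The count of genes called ranged from 0 to 5 when 1 library was left out, with 0 without Smad4iko 1, 2 or 3 and at an unadjusted p under 0.05 of 1091, 823 and 637 genes. Of 972 values of single named genes, 923 kept their direction and side of the threshold, and none reversed. Newly passing were 20 and no longer passing 29, and the cause was not tested. Most named genes were not called at first, so staying uncalled counted as kept. Only the 4 called genes could lose a call, and all 29 losses were theirs. Counting the main fit, edgeR called Pianp in 16 of 21 settings and Klra3 in 14 of 21. It called Ccdc153 in 10 of 18 and Dynlrb2 in 9 of 18 settings that tested them.

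With the replicate number as a block edgeR called 82 genes (9 higher, 73 lower), all 4 called genes among them. Deviations of same-numbered libraries correlated at 0.524, -0.122 and 0.354 for numbers 1 to 3, so the number is not taken as a pairing, and Smad4fl/fl 2 was closest to Smad4iko 4.

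The difference in the share of non-cycling alveolar macrophages, -0.415 points, reversed to 0.480 with the stricter cell filter and to 2.12 with barcodes past the T cell and neutrophil limits left out of the total. It ranged from -1.38 to 1.29 when 1 library was left out, reversing to 1.29 without Smad4fl/fl 3, 0.179 without Smad4iko 3 and 0.268 without Smad4iko 4. The comparison with interstitial macrophages gave 0 genes, and 1 gene, Serping1, with a prior count of 1 and with a mean of at least 10 UMIs. Depth limits the low genes: 3 UMIs in a library equal 0.260 to 0.542 CPM. The number of mice limits every comparison, and that with interstitial macrophages rests on 32 to 220 of them per library.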
